A study of Mus musculus with 16 samples.

Results

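The 8 genes described here encode the natriuretic peptides (Nppa, Nppb and Nppc), their receptors (Npr1, Npr2 and Npr3) and the proteases that cut the peptide precursors (Corin and Furin). They were taken by gene symbol from a table of 35556 rows, and each had exactly 1 row. The measurements came from RNA immunoprecipitation read out on arrays (RIP-chip) in HL-1 cells, an established line of mouse atrial cardiomyocytes. One set of cells received a scrambled siRNA and the other the siRNA siAirn-001.1 against Airn, a long non-coding RNA, each at 10 nM. The medium of all groups contained norepinephrine. From each set, RNA was recovered with an antibody against Igf2bp2, an RNA-binding protein that acts on mRNA stability, transport and translation, or with control IgG. Each of these 4 groups held 4 biological replicates per the labels, 16 arrays in all. With a single cell line and a single Airn siRNA in use, effects particular to either cannot be told apart from those of Airn silencing.

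Natriuretic peptides are hormones of salt, water and vascular tone. Atrial natriuretic peptide (ANP, from Nppa) and B-type natriuretic peptide (BNP, from Nppb) are made by cardiomyocytes, ANP mainly in the atria, and both act through the guanylyl cyclase receptor encoded by Npr1. C-type natriuretic peptide (CNP, from Nppc) acts mainly locally, through the related cyclase encoded by Npr2. Npr3 encodes the receptor that removes all 3 peptides from the circulation and has no cyclase domain. The membrane protease corin, found on cardiomyocytes, cuts pro-ANP, while furin cuts the precursors of CNP and BNP inside the secretory pathway.

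Every value is a log2 difference, anti-Igf2bp2 minus IgG, so a positive value means more of an RNA in the Igf2bp2 precipitate than in the IgG precipitate of the same siRNA. It is neither an expression level nor a measure of how well Airn was silenced. A higher value may lie in either precipitate, and these cannot be told apart, since no array's own values entered the work. The error given after each ± is a standard error (SE), worked back from each deposited difference and p-value. The 95% intervals were computed from this SE. Neither the SE nor the interval is a deposited value, also where it stands beside one. A row was called at an adjusted p under 0.05 over all rows.

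The 8 genes did not share 1 pattern of calls, and differences between them were not tested. With the scrambled siRNA, Corin, Furin and Npr2 were higher and Nppc was lower in the Igf2bp2 precipitates, while Nppa, Nppb, Npr1 and Npr3 were not called. With the Airn siRNA, Nppa alone of the 8 was called, at about 2.04-fold higher. The authors' deposited table thus called 3 members higher and 1 lower with the scrambled siRNA, where it called 20.4% of all rows higher and 16.8% lower. With the Airn siRNA it called 1 member higher and 0 lower, against 0.630% and 0.425% of all rows. In the average over both siRNAs, a value computed from the table, 4 members were called higher and 1 lower, against 29.2% and 29.0% of all rows. The members' median difference was 0.32 with the scrambled and 0.31 with the Airn siRNA per the authors' deposited table, beside medians of -0.10 and -0.06 over all rows. All rows include those without a symbol. Over the 20169 genes with 1 row each, the medians were -0.05 and 0.01. Of these genes, 25.5% were called higher and 17.2% lower with the scrambled siRNA, and 0.813% and 0.169% with the Airn siRNA. In the average the shares of these genes were 35.8% and 30.0%. When both comparisons were centred on the medians of all rows, the higher share of all calls was 68.8% in place of 54.9% with the scrambled siRNA, and 80.2% in place of 59.7% under the Airn siRNA. The centred values called the same members in each comparison, and Npr3 as well in the average.

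**Figure D1:**
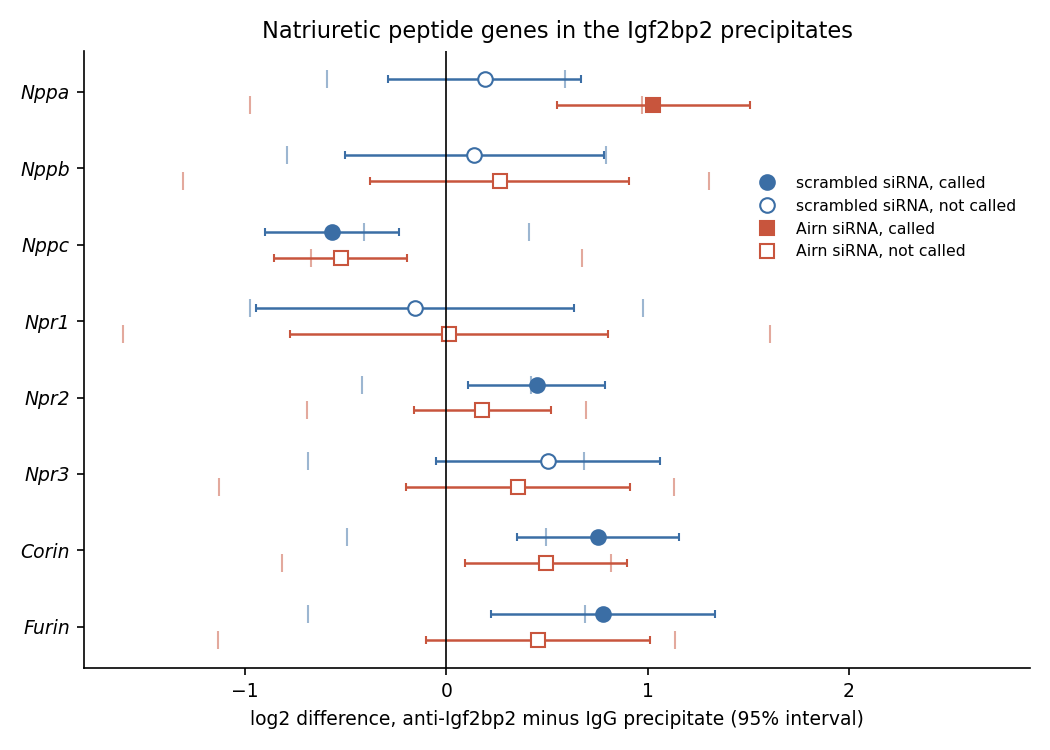
Differences (log2, anti-Igf2bp2 minus IgG) of the 8 genes, with the scrambled siRNA (circles) and the Airn siRNA (squares). Bars are 95% intervals, filled symbols are called, and the short vertical ticks mark the difference that each row would have needed to be called. The square of Nppa, at 1.03, lies just beyond its tick at 0.97.

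Among the peptide genes, Nppa was the one whose value differed most between the siRNAs. In the authors' deposited table it stood at 0.19 ± 0.23 (SE) with the scrambled siRNA (95% interval -0.29 to 0.67, adjusted p = 0.493). For the Airn siRNA the authors' deposited table gave 1.03 ± 0.23 (95% interval 0.55 to 1.51, adjusted p = 0.0474). The first interval includes 0 and the second does not, and both intervals share the stretch between 0.55 and 0.67. As a fold, the scrambled value corresponds to 1.14 and the Airn value to 2.04, with a 95% interval of 1.46 to 2.84. Averaged over both siRNAs, Nppa stood at 0.61 ± 0.16 (adjusted p = 0.00692 in the recovered test). The Airn-siRNA call was close to the limit: at the SE of this row a difference of 0.97 was needed. When only rows with a single gene symbol were tested, the adjusted p of Nppa was 0.0531, and with the Benjamini-Yekutieli adjustment it was 0.521, so that the call was lost in both.

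The place of Nppa among all genes also differed between the siRNAs. Over 20169 genes, each represented by 1 row, 57.0% had a lower value than Nppa with the scrambled siRNA, and 99.4% under the Airn siRNA, per the authors' deposited table. With the Airn siRNA the authors' deposited table called 164 genes higher, among which Nppa held place 52 by size. Of these 164 genes, 132 were also called with the scrambled siRNA, and Nppa was one of the 32 that were not. Only 6 of the 164, Nppa included, combined the Airn call with a change at least as large as that of Nppa.

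Nppb, which lies next to Nppa in the genome and encodes BNP, was not called with either siRNA. The authors' deposited table gave 0.14 ± 0.30 with the scrambled siRNA (95% interval -0.50 to 0.78, adjusted p = 0.713). For the Airn siRNA the authors' deposited table gave 0.26 ± 0.30 (95% interval -0.38 to 0.91, adjusted p = 0.512). Its row was among the less precise ones: 85.3% of genes had a smaller SE, and a call with the Airn siRNA would have needed a difference of 1.31, above the value of Nppa itself. The Nppa and Nppb intervals overlapped with both siRNAs, so these data do not show that the cardiac peptide mRNAs differ from each other.

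Nppc, the CNP gene, was the single member with negative values throughout. It stood at -0.57 ± 0.16 with the scrambled siRNA (95% interval -0.90 to -0.24, adjusted p = 0.0173) per the authors' deposited table, which is a 1.48-fold lower value in the Igf2bp2 precipitate. Under Airn silencing the authors' deposited table gave -0.53 ± 0.16 (95% interval -0.86 to -0.19, adjusted p = 0.0735), which was not called. The row of Nppc was precise, with 2.23% of genes having a smaller SE, and the values with the 2 siRNAs differed by 0.04 ± 0.22. Averaged over both siRNAs, Nppc stood at -0.55 ± 0.11 (adjusted p = 0.00248 in the recovered test). The call with the scrambled siRNA was lost where a difference of at least 0.58 was also asked for.

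The receptor genes had small or imprecise differences. Npr2, the CNP receptor, was called with the scrambled siRNA at 0.45 ± 0.16 (95% interval 0.11 to 0.79, adjusted p = 0.0404) per the authors' deposited table, or 1.37-fold. Under Airn silencing the authors' deposited table gave 0.18 ± 0.16 for Npr2 (95% interval -0.16 to 0.52, adjusted p = 0.403). A call of this row needed 0.42 with the scrambled siRNA, and 0.69 under the Airn siRNA, so the first value was just inside. Averaged over both siRNAs, Npr2 stood at 0.31 ± 0.11 (adjusted p = 0.0284 in the recovered test). This call was lost with an assumed error correlation of 0.3 between the comparisons (adjusted p = 0.0566).

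Npr3, the clearance receptor, had a scrambled-siRNA value above that of Npr2 but a wider error. It stood at 0.51 ± 0.26 with the scrambled siRNA (95% interval -0.05 to 1.06, adjusted p = 0.126) per the authors' deposited table. With the Airn siRNA the authors' deposited table gave 0.36 ± 0.26 (95% interval -0.20 to 0.91, adjusted p = 0.315). Its average of 0.43 ± 0.19 missed the threshold (adjusted p = 0.0561 in the recovered test). That average was called with both comparisons centred on their medians (adjusted p = 0.0300) or with an assumed error correlation of -0.3 between them (adjusted p = 0.0224).

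Npr1, the receptor for ANP and BNP, gave no difference that its error could resolve. The authors' deposited table gave -0.16 ± 0.37 with the scrambled siRNA (95% interval -0.95 to 0.63, adjusted p = 0.736) and, with the other siRNA, 0.01 ± 0.37 (95% interval -0.78 to 0.80, adjusted p = 0.981). Of all genes, 96.5% had a smaller SE than Npr1, and a call would have needed a difference of 0.98 with the scrambled and 1.61 with the Airn siRNA. The intervals therefore hold both a lower and a higher value of more than 1.5-fold, and the 3 receptor genes cannot be ranked by these data.

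The protease genes had the highest values of the 8 genes with the scrambled siRNA. Corin, whose product activates pro-ANP, stood at 0.75 ± 0.19 (95% interval 0.35 to 1.16, adjusted p = 0.0135) per the authors' deposited table, a 1.69-fold higher value. Furin, a convertase of many secreted proteins, stood at 0.78 ± 0.26 (95% interval 0.22 to 1.34, adjusted p = 0.0335) per the authors' deposited table, or 1.71-fold. Values this high were not rare, since 84.7% of genes had a lower value than Corin and 86.0% a lower value than Furin with this siRNA.

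Under the Airn siRNA both proteases were again positive and were not called. Corin stood at 0.50 ± 0.19 (95% interval 0.09 to 0.90, adjusted p = 0.105) per the authors' deposited table. Furin stood at 0.46 ± 0.26 (95% interval -0.10 to 1.01, adjusted p = 0.217) per the authors' deposited table. A call would have needed differences of 0.82 for Corin and 1.14 for Furin. Averaged over both siRNAs, Corin stood at 0.62 ± 0.13 (adjusted p = 0.00311) and Furin at 0.62 ± 0.19 (adjusted p = 0.0130) in the recovered test.

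**Figure D2:**
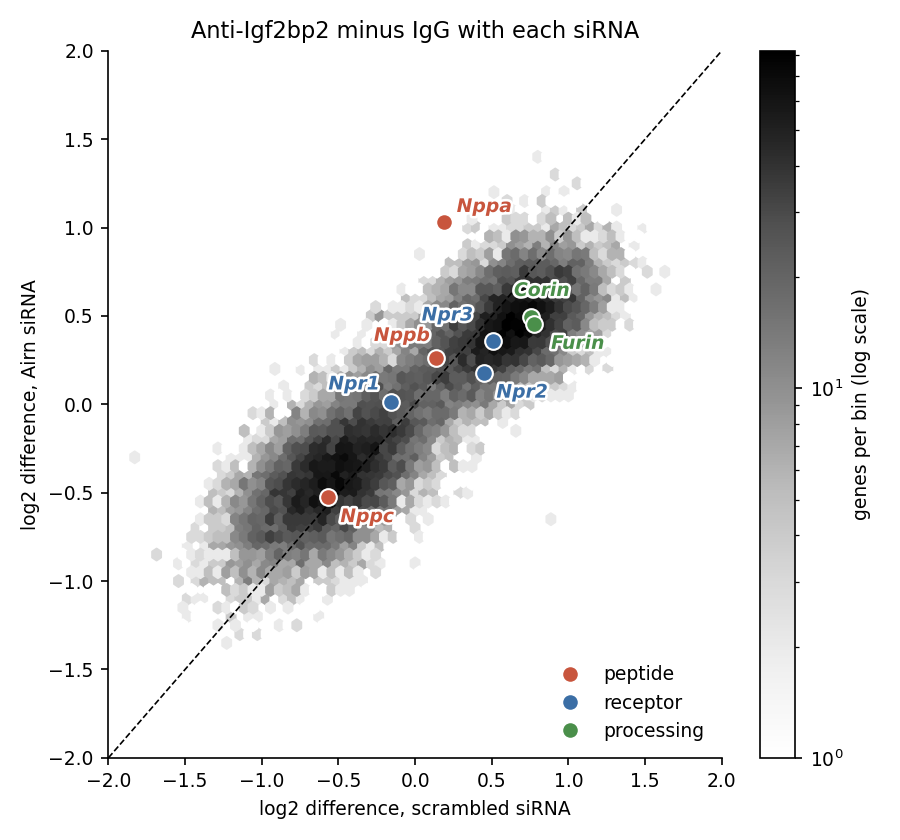
Log2 difference with the scrambled siRNA (horizontal) against that with the Airn siRNA (vertical) for all genes, shaded by the number of genes per bin on a log scale, with the 8 members coloured by role and the dashed line marking equal values. The axes run from -2 to 2, and 9 genes beyond them are not drawn. Nppa lies above the line at the edge of the shaded cloud, while the other 7 members lie within it.

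Ordered by size with the scrambled siRNA, the genes ran Furin, Corin, Npr3, Npr2, Nppa, Nppb, Npr1 and Nppc, and the 95% intervals of all neighbours in this order overlapped. Of 28 pairs of genes, 4 had intervals that did not overlap, each of them Nppc against Npr2, Npr3, Corin or Furin. With the Airn siRNA the order was Nppa, Corin, Furin, Npr3, Nppb, Npr2, Npr1 and Nppc, and 5 pairs had separate intervals: Nppa against Nppc and Npr2, and Nppc against Npr2, Corin and Furin. The genes were read on the same arrays, so their errors are not independent, and differences between genes were not tested. How often pairs of other genes have separate intervals was not computed, so these counts are not shown to be particular to the members.

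The change between the siRNAs asked whether the difference between anti-Igf2bp2 and IgG depended on Airn silencing. No member passed, and neither did any of the 35556 rows (0% called at an adjusted p under 0.05 in the recovered test). An unadjusted p under 0.05 was seen in 1221 rows, or 3.43% of them. Nppa had the largest change of the 8, at 0.84 ± 0.32 (95% interval 0.16 to 1.52, unadjusted p = 0.0183, adjusted p = 0.998 in the recovered test). That is a 1.79-fold higher Igf2bp2-over-IgG ratio with the Airn siRNA. A change at least as large was seen in 147 of 20169 genes (0.729%), each represented by 1 row, Nppa included. Over all rows, those in which the change was tested, the share was larger, at 1012 of 35556. Among rows with a single symbol, 212 of 22405 had one (0.946%). The adjusted p of Nppa ranged from 0.545 to 1 over the alternatives tried. The call of Nppa with one siRNA and not with the other is thus not shown to be a difference between them.

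The other 7 members had changes nearer to 0, each with an interval that included 0. Furin stood at -0.32 ± 0.37 (95% interval -1.11 to 0.47), Npr2 at -0.27 ± 0.23 (95% interval -0.75 to 0.21) and Corin at -0.26 ± 0.27 (95% interval -0.83 to 0.31). Npr3 stood at -0.15 ± 0.37, Nppb at 0.13 ± 0.43 and Npr1 at 0.17 ± 0.53. Nppc had the narrowest interval, -0.42 to 0.51 around 0.04 and so leaves room for a rise of up to 1.43-fold. For Npr1 the interval was the widest, -0.95 to 1.29.

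**Figure D3:**
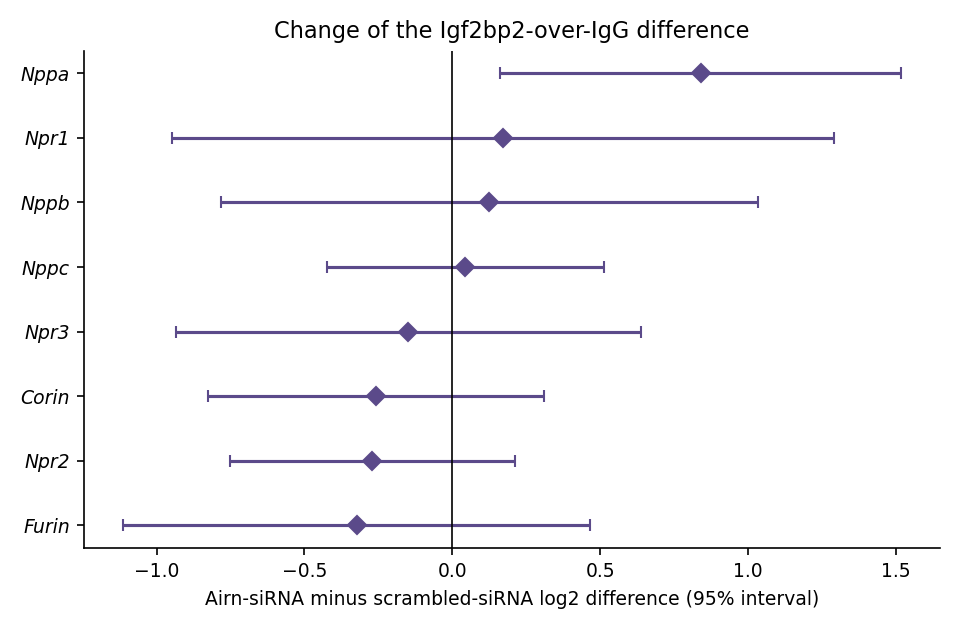
Airn-siRNA minus scrambled-siRNA log2 difference for each gene, with 95% intervals that take the errors of both comparisons as independent. The interval of Nppa (0.16 to 1.52) lies above 0 before adjustment for the number of rows tested, and the other 7 intervals include 0.

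The genes around the peptide pair on the chromosome were read as well, a choice made after the values were seen. In the order of the GRCm38.p6 annotation of RefSeq, the protein-coding genes run Plod1, 2510039O18Rik, Nppb, Nppa and Clcn6. Clcn6, a chloride transport protein gene, was called with the scrambled siRNA (0.85, adjusted p = 0.0185) and not with the Airn siRNA (0.59, adjusted p = 0.115) per the authors' deposited table. Plod1, a collagen lysyl hydroxylase gene, stood at 0.67 (adjusted p = 0.0140) and 0.23 (adjusted p = 0.315) per the authors' deposited table. Per the authors' deposited table, 2510039O18Rik was not called with either siRNA (0.27 and -0.16). Changes of these 3 genes between the siRNAs ran from -0.44 to -0.26, each with a lower value under the Airn than under the scrambled siRNA, and none passed adjustment.

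By the distance over the 2 differences, the genes most like Nppa among 15901 named genes were Bag5, Fsd2, Alpl, Ppara and Nme6. Bag5, which encodes a co-chaperone of Hsp70, stood at 0.15 and 1.05 per the authors' deposited table, with adjusted p of 0.660 and 0.0633. Alpl, tissue-nonspecific alkaline phosphatase, stood at 0.18 and 0.91 (adjusted p = 0.518 and 0.0541) per the authors' deposited table. Ppara, a nuclear receptor of fatty-acid metabolism, stood at 0.05 and 1.06 (adjusted p = 0.901 and 0.0785), and Fsd2 at 0.18 and 0.94 (adjusted p = 0.638 and 0.0817) per the authors' deposited table. Nme6, of the nucleoside diphosphate kinase family, was called with the Airn siRNA (0.91, adjusted p = 0.0474) and not with the scrambled siRNA (0.27, adjusted p = 0.271) per the authors' deposited table. Likeness over 2 values is a description only, and 11 genes lay within 0.2 of Nppa.

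Genes around natriuretic peptide signalling were described from 9 lists holding 117 genes, of which 116 had a row with a single symbol. The lists were broad and also held genes outside this signalling, such as photoreceptor genes, relatives of corin and other hormones. Counts over the 116 are therefore not a result about natriuretic peptide signalling alone. Of the 116, the authors' deposited table called 21 as higher and 33 as lower with the scrambled siRNA, against 25.5% of all genes higher and 17.2% lower. The counts given below for each list are to be read against the same shares. The Airn comparison called none of the 116, against 0.813% and 0.169% of all genes, while 35 of them (30.2%) had an unadjusted p under 0.05, against 37.2% of all genes. In the average over both siRNAs 27 were higher and 49 lower, against 35.8% and 30.0% of all genes. The median over the 116 genes was -0.37 with the scrambled and -0.25 with the Airn siRNA per the authors' deposited table, beside -0.05 and 0.01 over all genes.

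Inside the cell the cyclase receptors signal through cyclic GMP, and the genes listed for its synthesis were split. Of the 12 listed, the authors' deposited table had 2 called higher and 6 lower with the scrambled siRNA (median -0.58). The list counted Nos1, Nos2 and Nos3, whose enzymes make nitric oxide and not cyclic GMP. Gucy1b3 (now Gucy1b1), the beta subunit of the nitric oxide-sensitive cyclase, was higher (1.06, adjusted p = 0.0202) per the authors' deposited table. Its Airn-siRNA value there was 0.61. Gucy1a2, another subunit of that enzyme, was lower (-1.004, adjusted p = 0.0224), as was the retinal cyclase Gucy2e (-0.80, adjusted p = 0.0156), per the authors' deposited table. The Airn siRNA values were lower than 0 too: Gucy1a2 stood at -0.79 and Gucy2e at -0.53 per the authors' deposited table.

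The 14 cyclic GMP effectors had 4 members higher and 6 lower with the scrambled siRNA per the authors' deposited table (median -0.48). Prkg1, the cyclic GMP-dependent protein kinase of muscle, was higher (1.27, adjusted p = 0.00784), as was Pln, the sarcoplasmic reticulum protein phospholamban (0.91, adjusted p = 0.0172), per the authors' deposited table. Prkg1 stood at 0.43 with the Airn siRNA per the authors' deposited table, and its change of -0.84 ± 0.36 had an unadjusted p of 0.0333 and did not pass adjustment. Pln stood at 0.73 with the Airn siRNA per the authors' deposited table. Cngb3, a cone photoreceptor channel subunit, was lower (-1.02, adjusted p = 0.0277) per the authors' deposited table. Of 13 phosphodiesterases, which degrade cyclic nucleotides, the authors' deposited table had 1 called higher and 4 lower (median -0.42), with Pde1a (-0.95), the photoreceptor enzyme Pde6c (-0.83) and Pde10a (-0.83) among the lower.

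Proteases listed for peptide degradation had 1 member of 9 higher and 3 lower with the scrambled siRNA per the authors' deposited table (median -0.32). Neprilysin, encoded by Mme, which degrades natriuretic peptides, was lower (-0.86, adjusted p = 0.0162), and insulin-degrading enzyme, Ide, was higher (0.72, adjusted p = 0.0378), per the authors' deposited table. Dpp4, dipeptidyl peptidase 4, was lower (-1.14, adjusted p = 0.0101) per the authors' deposited table. Under the Airn siRNA Mme stood at -0.31, Ide at 0.42 and Dpp4 at -0.20 per the authors' deposited table, and the Dpp4 change of 0.94 (unadjusted p = 0.0195) did not pass adjustment.

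Relatives of the member proteases were compared beside Corin and Furin. Of 9 other proprotein convertases and their partners, 2 were called higher and 0 lower with the scrambled siRNA per the authors' deposited table: Pcsk7 (0.81, adjusted p = 0.0105) and Mbtps1, the site-1 protease of the Golgi (0.91, adjusted p = 0.0231). Pcsk6, a convertase that activates corin in mice, stood at -0.37 and -0.44 and was not called with either siRNA per the authors' deposited table, and its average of -0.40 was called lower (adjusted p = 0.0190 in the recovered test). Among 16 serine proteases related to corin, the authors' deposited table had 0 called higher and 6 lower with the scrambled siRNA (median -0.55), including hepsin, Hpn (-0.88, adjusted p = 0.0282), and Tmprss11e (-1.03, adjusted p = 0.0135). Tmprss15, enteropeptidase, stood at -0.90 and was not called (adjusted p = 0.0539) per the authors' deposited table. Its average of -0.91 was called lower (adjusted p = 0.00847 in the recovered test). No gene of this list was above 0 with the Airn siRNA, where the authors' deposited table called none of them.

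**Figure D4:**
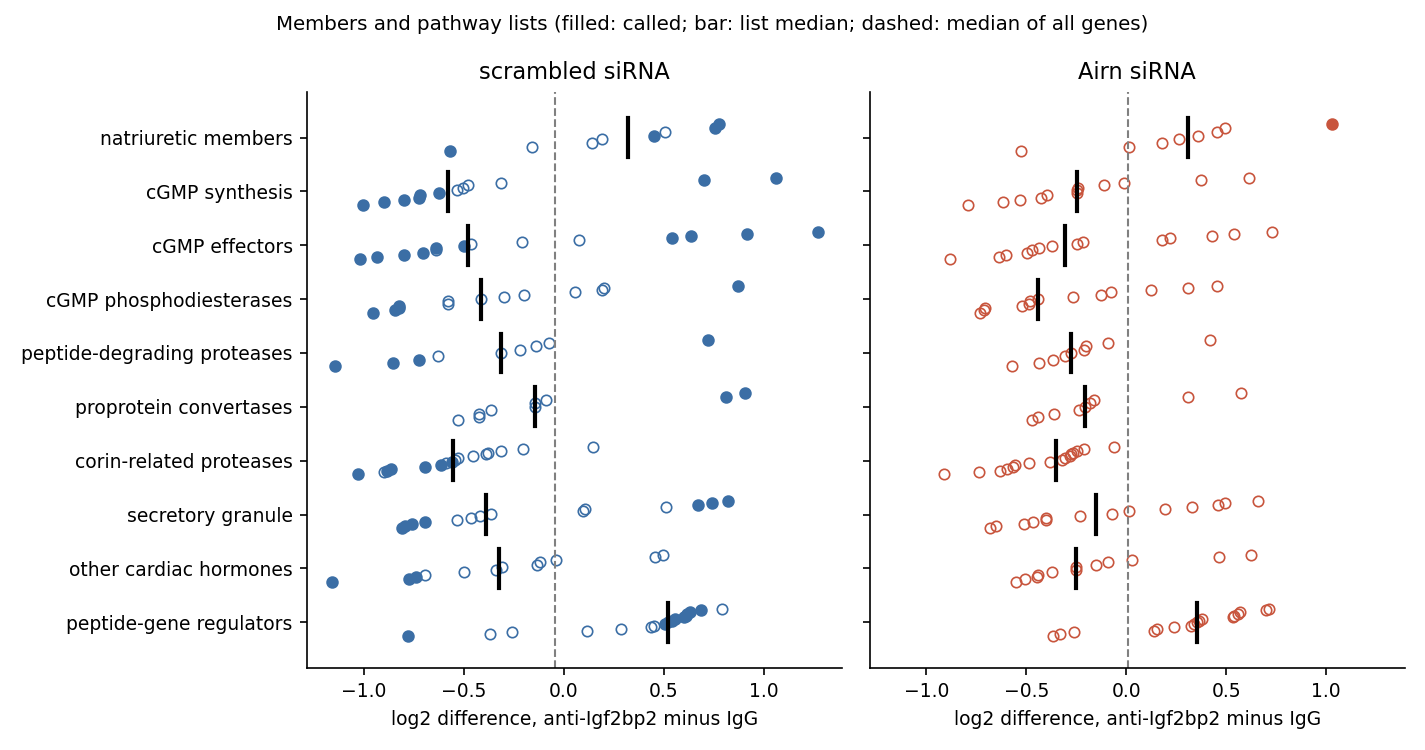
Log2 difference of each gene in the member set and in the 9 pathway lists, with the scrambled siRNA (left) and the Airn siRNA (right). Filled points are called, black bars are list medians, and dashed lines are the medians over all genes (-0.05 and 0.01). The regulators of the peptide genes (median 0.52 and 0.35) and the members (0.32 and 0.31) lie to the right of the dashed lines, and the other 8 lists have medians to the left.

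Secretory granule genes had 3 of 14 members higher and 4 lower with the scrambled siRNA per the authors' deposited table (median -0.39). Pam, a peptide-amidating enzyme abundant in atrial granules, was higher (0.82, adjusted p = 0.0192) per the authors' deposited table. Scg3, a neuroendocrine granule protein, was lower (-0.76, adjusted p = 0.0250) per the authors' deposited table. Of 12 other peptide hormones, the authors' deposited table had 0 called higher and 3 lower (median -0.32), including osteocrin, Ostn (-1.16, adjusted p = 0.0227), a ligand of Npr3, and parathyroid hormone, Pth (-0.77, adjusted p = 0.0390). Edn3, endothelin 3, stood at -0.70 and was not called (adjusted p = 0.0646) per the authors' deposited table. Its average of -0.60 was called lower (adjusted p = 0.0213 in the recovered test).

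Transcription factors and cofactors that regulate the Nppa and Nppb genes were mostly on the higher side. Of 17, the authors' deposited table had 8 called higher and 1 lower with the scrambled siRNA (median 0.52), and none with the Airn siRNA (median 0.35). The shares over all genes were 25.5% higher and 17.2% lower with the scrambled siRNA, and 0.813% and 0.169% with the Airn siRNA. Tbx5 stood at 0.69 and 0.70, Tbx20 at 0.60 and 0.57 and the repressor Rest at 0.51 and 0.72, scrambled value first, per the authors' deposited table. The adjusted p of these 3 genes with the scrambled siRNA ran from 0.0247 for Tbx5 to 0.0398 for Rest per the authors' deposited table.

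The label of the cells was read against marker genes, as far as differences between precipitates allow. Of 11 measured cardiomyocyte markers, 7 were called higher and 1 lower with the scrambled siRNA per the authors' deposited table. The list mixed atrial genes with genes not particular to the atria. Over all genes, 25.5% were called higher and 17.2% lower. Troponin C, Tnnc1 (1.64), and the gap junction gene Gja1 (1.19), were higher per the authors' deposited table. Myl4, the atrial myosin light chain, was called with both siRNAs (0.72 and 0.78, adjusted p = 0.0119 and 0.0474) per the authors' deposited table. Picked after their values were seen, 3 atrial markers went the other way: per the authors' deposited table, the potassium channel gene Kcnj3 was lower with the scrambled siRNA (-0.81, adjusted p = 0.00986), while sarcolipin, Sln (-0.50), and the gap junction gene Gja5 (-0.26), were not called. Kcnj3 stood at 0.05 with the Airn siRNA per the authors' deposited table, and its change of 0.87 (unadjusted p = 0.00354, adjusted p = 0.998) was larger than that of Nppa and did not pass adjustment. The average of Sln was called lower (-0.45, adjusted p = 0.0265 in the recovered test). Endothelial markers had 0 of 8 higher and 3 lower, fibroblast markers 1 of 8 and 2, smooth muscle markers 3 of 6 and 1, and leukocyte markers 1 of 8 and 3, with the scrambled siRNA per the authors' deposited table, to be read against the same shares of all genes. Named among these by the same rule, Cdh5 (-0.60), Emcn (-0.72), Pdgfra (-0.66), Dpt (-1.04), Lyz2 (-1.17) and S100a8 (-1.28) were lower and Acta2 (0.85), Tagln (0.94) and Cnn1 (1.06) higher per the authors' deposited table. Per the authors' deposited table, Kdr (0.54), Postn (0.84) and Csf1r (-0.52) were not called with the scrambled siRNA. In the recovered test the average of Kdr was called higher (0.56, adjusted p = 0.0117) and that of Csf1r lower (-0.58, adjusted p = 0.00567). The average of Postn was not called (adjusted p = 0.102). Levels of these markers were not used here, and whether expression in these cells moves with the differences of the members was not tested.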

How the data were processed

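RNA precipitated with anti-Igf2bp2 or IgG was labelled as biotinylated cRNA by the Affymetrix protocol and read on arrays, per the labels. The authors' deposited table has 3 columns per siRNA, per the file headers: a difference between precipitates, a p-value and an adjusted p-value. That the deposited differences are on a log2 scale was assumed from the assay and their range. The authors' normalization and model are steps not given in the sources used here. Array values were not used, and precision is limited by how many arrays there were. Recomputed Benjamini-Hochberg values matched the deposited adjusted p-values within 0.000225 where p was at least 0.001.

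The SE of each row was recovered with 16.15 degrees of freedom, the value at which both comparisons gave the same SE (median disagreement 0.0564% over 24012 rows). For Npr1 the 2 recoveries differed by 3.71%, and for the other members by at most 0.368%. Change and average were computed with independent errors and adjusted over all rows by Benjamini-Hochberg. On simulated data analysed with limma 3.58.1 (R 4.3.3, 35556 rows), the recovered test of the change found 64 of the 100 rows given a 4-fold change and 6 of the 100 given a 2-fold change, as many as limma did. Among the 35356 rows given no change, each of the 2 tests called 4. The errors were simulated as independent, so the simulation cannot check whether those of the real arrays are. Computations used scipy 1.17.1.

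Groups came from sample titles. All rows entered the tests, 10302 of them without a symbol. For lists, a gene was its row with the smallest SE (20169 genes). In each list the 3 genes with the largest absolute average, and any called with the Airn siRNA, were named, and the 5 genes nearest to Nppa; 1 listed gene that this rule names is not reported here. Members and lists were chosen with earlier results of these data known. Klk1 and Myh6 had no row of their own symbol. P-values measure the spread between the replicates of 1 cell line.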

Additional observations from a re-analysis of the deposited data

How the results depend on the processing

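The number of members called with the scrambled siRNA (4) was 2 with a difference of at least 0.58 also required, 0 at an adjusted p under 0.01 and 0 with the Benjamini-Yekutieli adjustment. With the Airn siRNA (1, Nppa) it was 0 among rows with a single symbol, 0 under 0.01, 0 with Benjamini-Yekutieli, and 2 at a threshold of 0.1, where Nppc joined. In the average (5) it was 3 under 0.01, 3 with the fold minimum, 2 with Benjamini-Yekutieli and 4 with an assumed error correlation of 0.3, where Npr2 was lost. In the change it was 0 under every alternative run. Over all rows, the calls with the Airn siRNA (375) were 36 among rows with a single symbol, 1184 after centring, 5706 at a threshold of 0.1, 16 at 0.01 and 9 with Benjamini-Yekutieli. With the scrambled siRNA (13248) they were 1305 at 0.01 and 73 with Benjamini-Yekutieli, and in the average (20682) 10272, 4815 and, with the fold minimum, 13066. With an assumed error correlation of 0.3, 2 rows passed in the change, neither of them a member. Of single values, the Npr1 average of -0.07 became 0.0063 after centring. A stricter threshold or adjustment loses calls by construction, and the cause of the loss among single-symbol rows was not tested. Of the values recomputed for single members, 214 kept their side of the threshold and direction, 21 lost a call, 4 gained one and 1 reversed. Leaving out replicates was not run, since it needs array values. No paired analysis was possible because the table holds comparisons and no values per replicate.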
